A study of Triticum aestivum with 9 samples.

Results

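The transcripts described here lost signal in both steps of a time course of bread wheat grain (Triticum aestivum, cultivar Jimai 20). Grains were harvested 11 (P1), 15 (P2) or 20 (P3) days after anthesis (DPA), and each phase had 3 biological replicates from separate field plots, which makes 9 arrays. All groups share the cultivar, the site and the growing season under normal field management, and the labels name no other allele or agent, so by the labels the phases differ in grain age only. Each transcript was read on an Affymetrix wheat GeneChip by a probe set, a group of short oligonucleotides designed to one sequence. The members were chosen by their own signals in the 3 phases. A probe set was taken if its mean log2 signal was lower by 1 or more, a 2-fold loss, from P1 to P2 and again from P2 to P3. The 3 arrays of the later phase also had to lie below the 3 arrays of the earlier phase in each step, and the mean signal at P1 had to be 300 or more. Control probe sets and the beta-amylase gene BMY1 (LOC543318) were left out. The rule found 127 of 61115 probe sets, or 0.208%, and 0.757% of the 16768 probe sets with a P1 mean of 300 or more. Leaving out BMY1 removed 1 probe set from 128. Because the signals of the 3 phases chose the members, their levels and changes are given as a description and carry no test.

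A wheat grain is a fruit in which maternal pericarp and seed coat enclose the starchy endosperm, the aleurone layer and the embryo. Cell division in the endosperm and photosynthesis in the green inner pericarp belong mainly to early development, while storage protein and starch accumulate during filling and the pericarp layers thin and die. Whole grains were extracted, so a probe set reads the sum over these tissues, and fewer cells of a type cannot be told apart from less RNA per cell. The labelled tissue was checked against marker genes. Of 12 starchy endosperm probe sets all but 2 were bright in every phase, with the gliadin gene LOC543210 at 59250, 71246 and 66060 and the granule-bound starch synthase gene GBSS-I at 13143, 15186 and 11581 (mean signal at P1, P2 and P3). The exceptions were Ta.28632.1.A1_at, at 408, 281 and 319, and Ta.160.2.A1_at, at 137, 80.8 and 52.9 and below background on all P2 and P3 arrays. The summed signal of the 12 endosperm probe sets was 334761 to 374149 in the P1 arrays, 360331 to 384392 in those of P2 and 386218 to 473503 in those of P3.

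Other tissue markers and 3′ to 5′ ratios moved with the phases. The summed signal of 32 green pericarp probe sets lay between 121979 and 134917 on P1 arrays, 120348 and 140761 on P2 arrays, and 70488 and 80695 on P3 arrays. None of them was at 0 in a whole phase, although many were below background on every array. Of the 32, 28 were of the Rubisco gene rbcl, and Ta.24976.1.S1_x_at and TaAffx.128414.1.A1_x_at, at 60238 and 45993 at P1, held most of the sum. PsbO (8286, 4567 and 1703), PRK (3758, 2689 and 1422) and the brighter PsbP probe set (8911, 6473 and 2400) were lower at P2. The dimmer PsbP probe set was not, at 1211, 1422 and 514. Of the 13 pericarp probe sets tested, 4 fell from P1 to P3, where fell and rose stand for a change of at least 2-fold with a limma adjusted p under 0.05. The summed signal of 10 embryo and aleurone probe sets was 6583 to 6992, 41600 to 44818 and 228442 to 271026, with none at 0, and all 10 rose from P1 to P3. For wheat transcripts with a 3′ and a 5′ probe set the log2 ratio of these averaged 3.32 ± 0.24 (SD, n = 3) in P1 grain, 2.11 ± 0.09 in P2 grain and 2.53 ± 0.07 in P3 grain. The same ratio of poly-A controls, which are spiked into the RNA and do not come from the grain, was 2.20 ± 0.11, 1.44 ± 0.15 and 2.14 ± 0.02. The background, the 95th percentile of reporter probe sets to foreign sequences, ranged over 89.4 to 104 in P1, 104 to 153 in P2 and 99.7 to 116 in P3. The part of these differences in the changes described was not tested.

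Only 3 of the 127 members had a gene symbol in the annotation of the array, and they belonged to 2 genes. This share of 2.36% compares with 2.08% of all probe sets, 1273 of which carry a symbol, so the array itself is sparsely named. The other 124 members are given by the identifier of the probe set and are unnamed here, not without a gene. Both named genes, LOC542914 and LOC543072, carry only a locus number in the tables used, and no role is given to them.

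LOC542914 was read by Ta.2036.1.S1_x_at, with signals of 29554, 28882 and 29273 at P1, then 5466, 4333 and 4614 at P2, and 1261, 1068 and 1664 at P3. The P1 arrays lay close together, and each later phase lay wholly below the one before. The first step was -2.61 and the second -1.87 on the log2 scale (SE 0.13 each, n = 3 arrays per phase), and P3 was 22.3-fold below P1. It was the third brightest member at P1.

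LOC543072 was read by a pair of probe sets on the same sequence. Ta.9316.1.S1_at gave 7157, 7050 and 6523 at P1, then 2468, 2541 and 2305 at P2, and 691, 681 and 789 at P3. Ta.9316.1.S1_x_at gave 6124, 5847 and 6223 at P1, then 2056, 2036 and 1976 at P2, and 501.5, 595.9 and 499.6 at P3. Both readings fell into 3 separate bands, one per phase. The first step was -1.50 for Ta.9316.1.S1_at and -1.58 for Ta.9316.1.S1_x_at, and the second was -1.76 and -1.93 (log2, SE 0.08 each). P3 was below P1 by 9.61-fold and 11.4-fold. The readings differed from each other by less than either step, but they share sequence and are not independent.

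Over all members the P1 means ran from 304 to 41053 with a median of 2786. Of the 127, 24 were at 10000 or more, 75 between 1000 and 10000, and 28 below 1000. At P3 the means ran from 7.06 to 4627 with a median of 192. The median signal of the members was 2528, 2598 and 2711 on the P1 arrays, 683, 684 and 651 on the P2 arrays and 179, 203 and 195 on the P3 arrays. Every array of a later phase therefore sat well below every array of an earlier one, as the rule required of each member. The members held 1.41% ± 0.00306 (SD, n = 3) of the summed signal of a P1 array, 0.392% ± 0.0044 of a P2 array and 0.111% ± 0.00777 of a P3 array. The median coefficient of variation across replicate arrays was 5.73% for P1, 11.6% for P2 and 18.7% for P3, so the relative spread widened as the members dimmed.

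**Figure D1:**
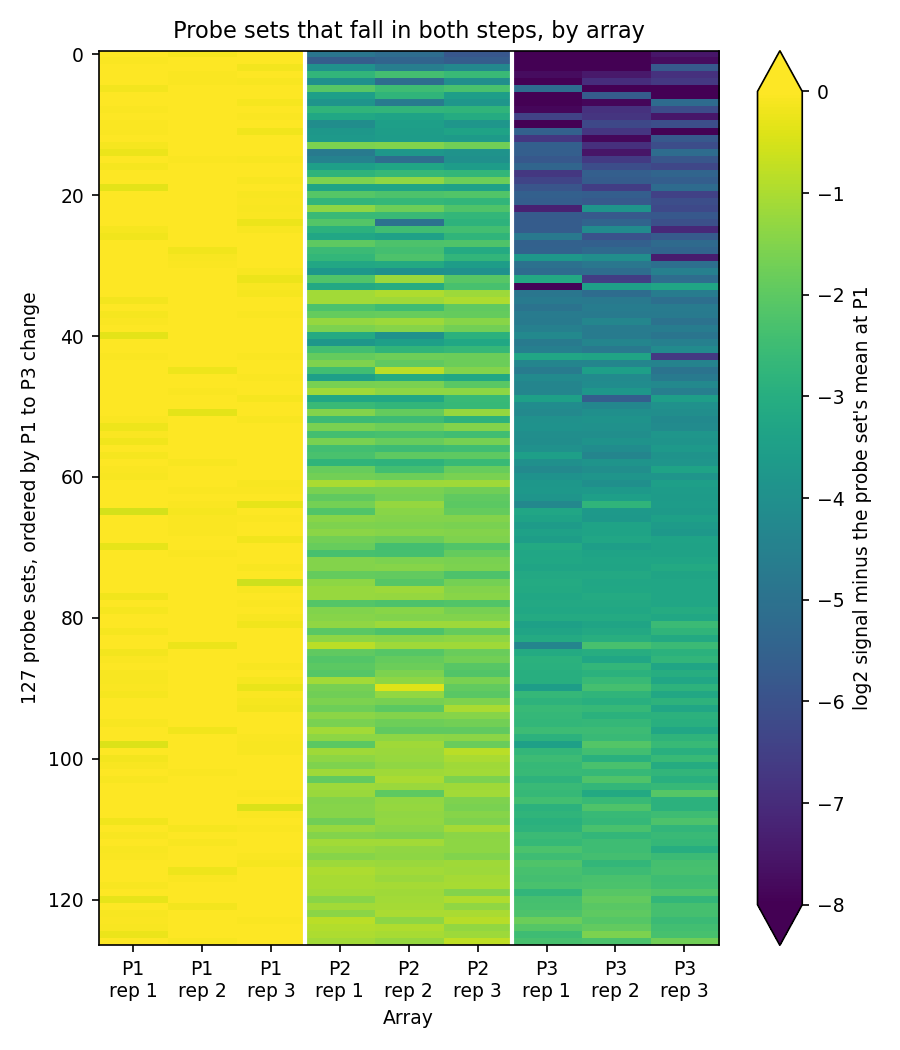
Log2 signal of the 127 members (rows, ordered by the P1 to P3 change) on the 9 arrays (columns), each relative to the mean of that probe set at P1, with the colour scale cut at -8. Within a phase the columns look alike, and the colour darkens from P1 to P2 and again from P2 to P3, with median changes of -1.69 and -1.70.

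The brightest member at P1 was Ta.10172.3.A1_x_at, with 43255, 41260 and 38644 at P1, then 15120, 14370 and 14394 at P2, and 4795, 4722 and 4365 at P3. Its steps were nearly equal, -1.49 and -1.66 (log2, SE 0.07), and P3 was 8.87-fold below P1. A probe set of the same cluster, the set of sequences that the design of the array grouped together, came next. This was Ta.10172.2.S1_x_at, at 39717, 39554 and 33627, then 11436, 10778 and 12810, then 3236, 3916 and 3635. Here too the phases did not overlap, and the steps were -1.69 and -1.70 (SE 0.09). Ta.9998.1.S1_at gave 27266, 28423 and 25213 at P1, then 8975, 8582 and 9144 at P2, and 3754, 3491 and 3764 at P3, a total loss of 7.34-fold. Ta.21393.1.A1_s_at had the tightest arrays of the 8 brightest members at P1, with 23183, 23451 and 23171, followed by 8404, 7787 and 7613 and by 2466, 2372 and 2363. Its steps were -1.55 and -1.72 (SE 0.06), and both were many times the spread between arrays.

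Another pair of bright members lost more signal early than late. Ta.11022.2.S1_x_at was at 24302, 23797 and 22897, then 5315, 5029 and 5212, then 2632, 2653 and 2456. Its first step was -2.19 and its second -1.01 (SE 0.06), just past the minimum of 1. Ta.9990.1.S1_x_at was at 23122, 24025 and 21396, then 5680, 6549 and 5431, then 3036, 3528 and 2309, with steps of -1.96 and -1.01 (SE 0.13). Its second step also lay just past the minimum. In both, the P2 arrays were several-fold below P1 and the further loss by P3 was near 2-fold.

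Ta.12587.1.S1_at, the eighth brightest member, ran the other way. Its signals were 22297, 21001 and 19743 at P1, then 7187, 8396 and 6200 at P2, and 256, 411 and 431 at P3. The second step of -4.34 was far larger than the first of -1.54 (SE 0.17), and no P3 array came within 10-fold of any P2 array. P3 was 58.9-fold below P1.

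**Figure D2:**
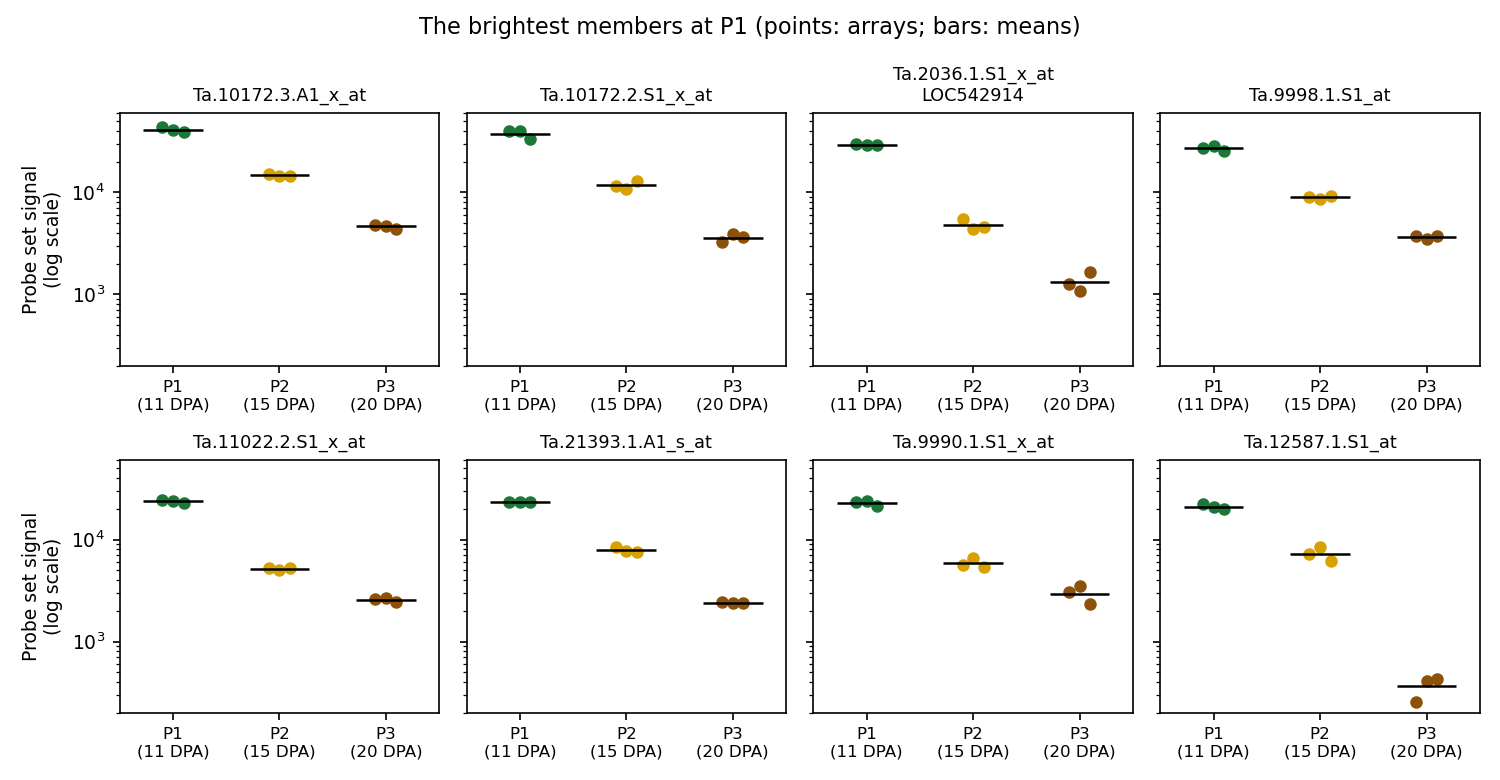
Signal (log scale) of the 8 brightest members at P1 in each phase; points are arrays and bars are means of 3 arrays. Most panels step down evenly, Ta.11022.2.S1_x_at and Ta.9990.1.S1_x_at have a smaller second step of -1.01 each, and Ta.12587.1.S1_at drops from a mean of 7261 at P2 to 366 at P3.

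The largest changes from P1 to P3 among members that stayed above background on all 9 arrays were of 27.1-fold to 61.2-fold, in 8 probe sets. Ta.5103.1.S1_at led with 14705, 16312 and 16218 at P1, then 1406, 1587 and 1315 at P2, and 374, 226 and 201 at P3. Its first step, -3.46, was larger than its second, -2.48 (SE 0.18). Ta.12587.1.S1_at, described above, was next in size.

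The sequence of Ta.18957.1 was read by 2 members that tracked each other. Ta.18957.1.S1_at gave 13939, 13452 and 13249, then 2292, 2260 and 2084, then 257, 249 and 243. Ta.18957.1.S1_x_at gave 12573, 12464 and 11936, then 1845, 1918 and 1866, then 254, 228 and 181. Their total changes were -5.76 and -5.82 on the log2 scale, or 54.3-fold and 56.3-fold, and the arrays within each phase were close. Ta.556.2.A1_at was at 16493, 13126 and 14673 at P1, then 2537, 2786 and 1702 at P2, and 330, 382 and 342 at P3, with equal steps of -2.68 and -2.71 (SE 0.16). Ta.28766.3.S1_at was at 5793, 5798 and 5926, then 1204, 1053 and 1495, then 188, 235 and 228, with steps of -2.24 and -2.52 (SE 0.13). All 4 lost more than 4-fold in each step.

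A further pair had a small fold change in the first step and a far larger one in the second. Ta.27751.6.S1_at was at 15643, 14960 and 13813 at P1, then 6868, 7700 and 6558 at P2, and 506, 409 and 589 at P3. TaAffx.128506.1.S1_x_at was at 8231, 9620 and 9301, then 4182, 4081 and 4602, then 344, 335 and 269. Their first steps were -1.07 and -1.08, close to the minimum, and their second steps were -3.83 and -3.77 (SE 0.12 and 0.10). P2 was thus 2.11-fold below P1 in each, while P3 was 14.2-fold and 13.6-fold below P2.

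The sizes of the steps varied widely among members. The first step had a median of -1.69 (range -5.57 to -1.02, quartiles -2.60 and -1.37) and the second a median of -1.70 (range -5.01 to -1.01, quartiles -2.63 and -1.20), on the log2 scale and with signals as deposited. Many of the P3 signals lay below background, and the largest second step measured above it was -4.34. These medians correspond to 3.24-fold and 3.25-fold, and the median total change of -3.64 to 12.5-fold. Over all 36669 probe sets tested the medians were 0.01, 0.07 and 0.07 for the same comparisons. The first step was the larger in 61 members and the second in 66. These counts include members at background. In 58 members the steps differed by under 0.5, in 19 the first was larger by 1 or more, and in 18 the second was. By the signals as deposited, steps of like size were therefore common, and neither direction of imbalance outnumbered the other by much. Among the 76 members above background on all arrays the split was less even, with the first step larger in 31 and the second in 45.

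The steps span unequal times, 4 days and 5 days. Per day, the median change was -0.42 in the first step and -0.34 in the second. By this measure 94 members were steeper in the first step against 33 in the second. These per-day values use the signals as deposited and include the 42 members below background on all P3 arrays, whose second step is at best a bound. By the signals as deposited, 48 members lost 4-fold or more in the first step, 50 in the second and 27 in both. Among steps with all arrays of both phases above background the numbers were 34 of 104, 21 of 76 and 5 of 76, and 4 further members had a second-step bound of 4-fold or more. For 8-fold the deposited signals gave 22, 25 and 8, and the measured steps 11, 7 and 0. From P1 to P3, 54 members lost 16-fold or more by the deposited signals, of which 18 were measured and 12 had a bound that high. The deposited signals put 16 members at 64-fold or more and 41 below 8-fold. None of those 16 stayed above background on all P3 arrays, so their measured ratios are uncertain and bounds are given for those named below.

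**Figure D3:**
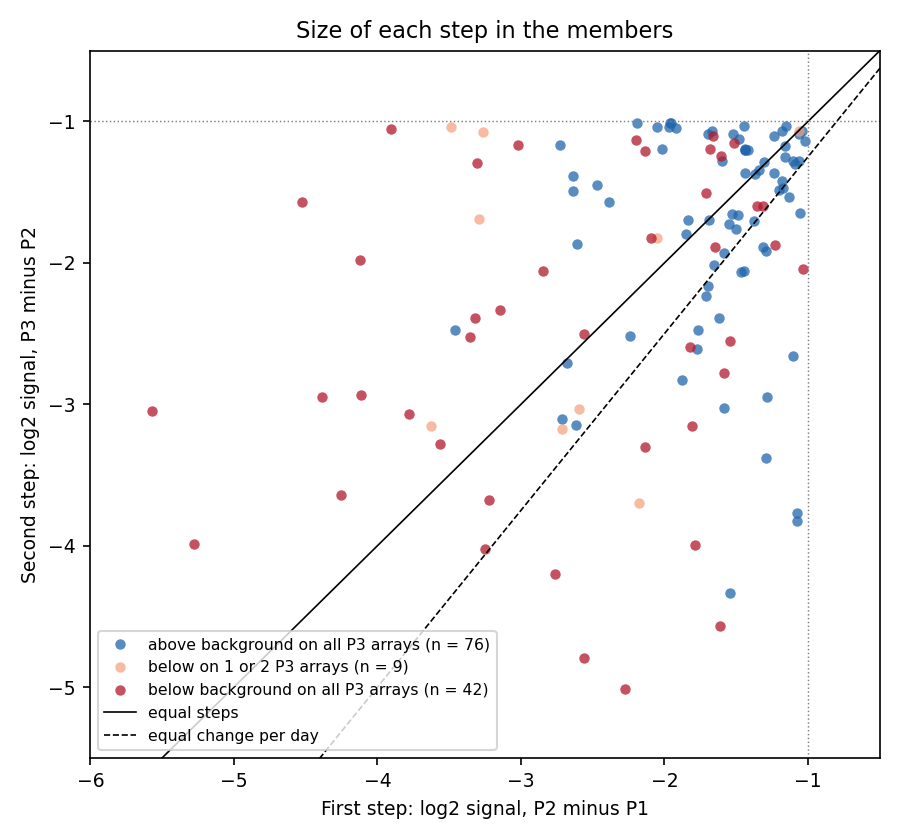
Second step (log2 signal, P3 minus P2) against first step (P2 minus P1) for the 127 members, one point each, coloured by how many P3 arrays were below background; dotted lines mark the minimum of the rule at -1, the solid line equal steps and the dashed line equal change per day. Points spread on both sides of the solid line (61 and 66), and the deepest steps belong mostly to the 42 members below background at P3.

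Every member was above background on all 3 P1 arrays, 104 were so at P2 and 76 at P3. At P3, 42 members were below background on all 3 arrays and 9 on 1 or 2 of them. At P2 the numbers were 6 and 17. A member below background has only a bound in that phase, and its loss is written as a lower limit, computed from the brighter phase down to background or to its own signal where that is higher. The widest bound was that of Ta.8258.3.S1_at, with 17583, 18411 and 18477 at P1, then 361.3, 427.2 and 361.5 at P2, and then 18.4, 62.7 and 86.0 at P3. The P3 arrays were all below background, and P3 was at least 167-fold below P1. Most of that loss came early, since P2 was 47.5-fold below P1 and P3 at least 3.51-fold below P2.

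The next widest bounds were reached from dimmer starts. TaAffx.3154.1.S1_at was at 9518, 9707 and 9107, then 1012, 912 and 1116, then 110.5, 86.1 and 51.5, at least 86.7-fold below P1 at P3. Ta.22984.1.S1_x_at was at 6874, 7061 and 7274, then 1029, 1059 and 1041, then 30.4, 61.3 and 98.6, at least 64.9-fold. Ta.3249.1.S1_at was at 6565, 6209 and 6351, then 968, 1223 and 1065, then 29.8, 36.4 and 54.8, at least 58.5-fold. In these 3 the P2 arrays stood well above background and within a narrow band, and the P3 arrays did not overlap them. TaAffx.128643.3.S1_at was at 5797, 5136 and 5744 at P1, then 191, 156 and 98.2 at P2, and then 3.23, 7.42 and 30.4 at P3, at least 51.0-fold. It was already near background at P2, where 1 of 3 arrays was below it. These 5 members were singled out after their values were seen.

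By the signals as deposited, Ta.22984.2.S1_x_at had a second step that exceeded its first by the most, although its P3 arrays were all below background. It was at 4010, 4419 and 4540, then 1452, 1494 and 1302, then 93.0, 36.4 and 62.7. Its first step was -1.61, and P3 was at least 13.0-fold below P2 and at least 39.7-fold below P1. Measured above background, the widest excess of the second step was 2.79 on the log2 scale, in Ta.12587.1.S1_at. By the deposited signals 2 members stood furthest the other way, Ta.6747.1.S1_at and Ta.8220.3.S1_x_at. Ta.8220.3.S1_x_at was at 1376, 1295 and 1224, then 96.1, 81.2 and 83.3, then 35.0, 36.5 and 56.6. Ta.6747.1.S1_at was alike, at 1333, 1197 and 1175, then 56.9, 34.9 and 77.7, then 22.1, 12.5 and 21.4. In both, P2 and P3 were below background on every array, so neither the second step nor its difference from the first is measured. P2 was at least 9.74-fold and 9.27-fold below P1 in the pair.

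The same held for 4 other members below background in both later phases. They were TaAffx.48201.1.S1_s_at, Ta.21419.2.S1_at, TaAffx.129103.1.S1_at and Ta.27892.1.S1_at, with P1 means of 1285, 999, 791 and 367. For these the files show a loss by P2 of at least 9.57-fold, 7.49-fold, 5.92-fold and 2.73-fold, and nothing on what followed. Membership of these 6 probe sets rests on differences between signals below background.

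With every dim signal raised to background, the median step of the members was -1.65 and -1.28, and the median total change was -3.20. For the 76 members above background on all arrays the medians were -1.50, -1.48 and -3.17, with a median P1 mean of 5564. In these 76 the first step was the larger in 31 and the second in 45. Brightness and bounds went together. Of the 24 members at 10000 or more at P1, 23 stayed above background on all arrays, against 49 of 75 between 1000 and 10000 and 4 of 28 below 1000. The median total changes of the 3 classes were -3.64, -3.86 and -3.27 with signals as deposited, and -3.64, -3.55 and -2.30 with members below background at P3 entered at their bound. The order of the first 2 classes thus changed with the treatment of dim signals. These bounded medians, and the counts of measured steps above, were added after the data were seen.

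The 2 probe sets nearest to each edge of the rule, inside and outside, are given here. Just inside the first step stood Ta.891.1.S1_x_at at -1.02 and Ta.9064.1.S1_x_at at -1.04, and just outside Ta.28265.1.S1_at (LOC100049048) at -0.998 and Ta.10390.1.S1_at at -0.99. Ta.10390.1.S1_at, at 31621, 37629 and 32683, then 16071, 18056 and 17188, then 1998, 2096 and 1699, would have been among the brightest members, and its second step was -3.15. Inside the second step were Ta.11022.2.S1_x_at and Ta.9990.1.S1_x_at, both at -1.01, and outside Ta.8359.1.S1_s_at and TaAffx.6885.1.S1_at, both at -0.99. On the P1 mean, TaAffx.128180.1.S1_s_at (304) and Ta.9822.1.S1_at (305) were in, and TaAffx.14473.1.S1_at (283) and Ta.5645.2.S1_a_at (218) were out. On the gap between arrays, taken as the lowest array of the earlier phase over the highest of the later, Ta.488.3.S1_a_at (ratio 1.08) and TaAffx.79215.1.S1_at (1.08) were in. Ta.24042.1.A1_at (0.993) and Ta.3536.1.S1_at (0.928) were out. Most members were not near that edge. The median ratio was 2.74 in the first step and 2.28 in the second, and 67 members had a gap of 2-fold or more in both.

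The fit across all probe sets used limma with Benjamini-Hochberg adjustment over 36669 probe sets and called a change at an adjusted p under 0.05 and 2-fold. All 127 members had passed the filter on dim signals. From P1 to P2, 123 members were called lower where 5.79% of all tested probe sets were. From P2 to P3, 125 were called where 2.77% were, and from P1 to P3 all 127 where 4.76% were. The rule used these contrasts, so the counts are a description only. In all 121 members were called in both steps. The 4 members not called in the first step were Ta.488.1.S1_x_at, Ta.9064.1.S1_x_at, TaAffx.79403.1.S1_at and Ta.9823.1.S1_at, and the 2 not called in the second were Ta.488.1.S1_at and TaAffx.129103.1.S1_at. All 6 were at 300 to 1000 at P1. Of the 16768 probe sets with a P1 mean of 300 or more, 1313 met the rule for the first step and 624 that for the second. The mirrored rule for probe sets higher in both steps, with a P3 mean of 300 or more, was met by 267.

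Arrays that had no say in the choice were set against the rule. When it was applied without replicate 1 of every phase it chose 137 probe sets, and 128 of them were lower in both steps on the 3 arrays left out, 99 by 2-fold or more in both. Without replicate 2 it chose 140, of which 138 were lower in both steps on the left-out arrays and 94 by 2-fold or more. Without replicate 3 the numbers were 143, 135 and 103. Of all probe sets with a P1 mean of 300 or more on the arrays kept, 21.4%, 20.7% and 23.6% were lower in both steps on the left-out arrays, and 0.892%, 0.912% and 0.976% by 2-fold or more. Among those chosen the shares were 93.4%, 98.6% and 94.4%, and 72.3%, 67.1% and 72.0%. The loss in both steps was thus seen again on arrays the rule had not used, in most but not all probe sets chosen. Those arrays came from the same 3 phases, so they repeat whatever else differed between the phases. The probe sets chosen here are not the same set as the 127 members. The median first step on the left-out arrays was -1.72, -1.88 and -1.83, against -1.73, -1.78 and -1.72 on the arrays that chose them. The median second step was -1.55, -1.52 and -1.56 against -1.68, -1.69 and -1.74, so it was smaller each time on the arrays not used in the choice. The choices shared 116, 117 and 113 probe sets with the 127 members.

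The members belonged to 108 clusters by the number in their identifiers, and 120 sequences. Of the clusters, 92 gave 1 member, 13 gave 2 and 3 gave 3, and 7 sequences were read by a pair of members. Members of 1 cluster share sequence, and in hexaploid wheat they can also read related copies, so the 127 are not independent. Where a cluster had several members their total changes could be almost the same, as in TaAffx.18447 (range 0.01 on the log2 scale), Ta.22831 (0.03), Ta.28363 (0.04) and Ta.18957 (0.05). They could also differ, as in Ta.3249 (3.34) and Ta.28496 (1.86), although probe sets of these reached background at P3.

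Probe sets of these clusters that the rule had not taken numbered 95, in 47 clusters, and 61 clusters had none. Of the 95, 81 were tested. From P1 to P2, 36 fell and 0 rose, from P2 to P3 13 fell and 0 rose, and from P1 to P3 57 fell and 0 rose (limma, adjusted p under 0.05 and 2-fold). The shares of all tested probe sets that fell are given above, and those that rose were 6.89%, 4.46% and 8.36%. These probe sets share sequence with the members and were left over because they missed a part of the rule. The 55 with a P1 mean of 300 or more had median changes of -1.27 in the first step, -0.77 in the second and -2.30 in all, and 45 of them were lower in both steps.

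The 6 clusters in which such a probe set differed most from a member were taken after their values were seen. The difference was taken on the deposited signals, which were below background at P3 for the members in Ta.8258, TaAffx.128643 and Ta.22984. In Ta.8258 the member Ta.8258.3.S1_at went from a P1 mean of 18157 to 383 and 55.7, while Ta.8258.2.S1_at went from 14087 to 484 and 657 and Ta.8258.1.S1_x_at from 3405 to 70.2 and 113. Both of these fell from P1 to P2 and were not called from P2 to P3. The P2 mean of Ta.8258.1.S1_x_at lay under the background of every P2 array, so its course after P2 is not measured. In TaAffx.128643 the member TaAffx.128643.3.S1_at went from 5559 to 148 and 13.7, and the brighter TaAffx.128643.2.A1_at from 7166 to 665 and 525, again called in the first step only. The members' second steps there end below background.

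In Ta.556 the member Ta.556.2.A1_at went from 14764 to 2341 and 351. Ta.556.1.S1_at (2821, 1223 and 924) and Ta.556.1.S1_x_at (3175, 1382 and 974) fell from P1 to P2 with first steps of -1.22 and -1.20, and were not called from P2 to P3. In Ta.22984 the members Ta.22984.1.S1_x_at (7070, 1043 and 63.4) and Ta.22984.2.S1_x_at (4323, 1416 and 64.0) reached background, while Ta.22984.3.S1_at, at 1990, 1070 and 1636, was not called in any comparison. The first steps of these 3 probe sets were -2.76, -1.61 and -0.90, so they differed before P3 as well.

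In the other 2 clusters some probe sets were called in neither step. Ta.27751 had 9 probe sets, with 2 members, Ta.27751.2.S1_x_at (21004, 8607 and 837) and Ta.27751.6.S1_at (14805, 7042 and 501). Ta.27751.7.A1_x_at, at 24564, 17322 and 1250, had a first step of -0.51 and a second of -3.79, so it shared the late drop. Ta.27751.1.S1_at (2573, 3010 and 1760) and Ta.27751.8.S1_at (4770, 2597 and 3239) were not called in either step. In Ta.4324 the member Ta.4324.1.A1_at went from 10072 to 3071 and 651, while Ta.4324.2.A1_a_at (2290, 2884 and 2527) and Ta.4324.3.A1_x_at (2018, 2018 and 2318) were not called in any comparison. These clusters were picked for their differences and do not stand for the rest. Whether the probe sets read different copies or different ends of a transcript was not tested.

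**Figure D4:**
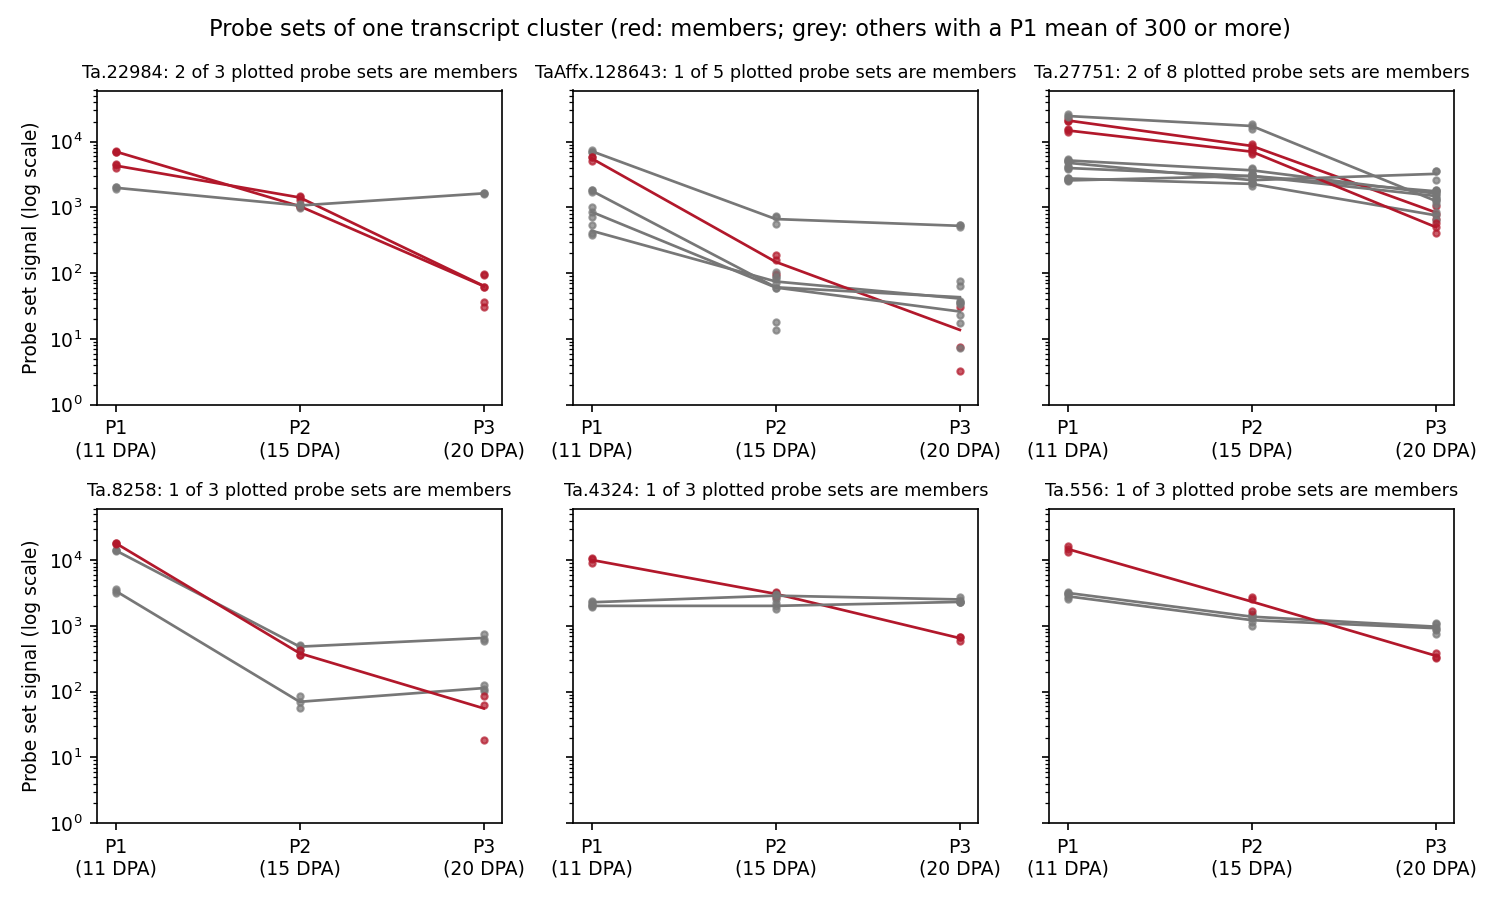
Mean signal (log scale, lines) and the 3 arrays (points) in each phase for probe sets of 6 clusters with a P1 mean of 300 or more; members are red and other probe sets grey. In Ta.8258 and Ta.22984 the members go on down after P2 and the others do not, and in Ta.4324 the member ends at 651 while the others stay at 2527 and 2318.

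The identifiers also show the kind of probe set. Of the members 76 were of the plain type, 34 of the type ending in _x_at, whose probes may match other sequences, 11 ended in _s_at and 6 in _a_at, types that read several transcripts by design. Shares were 59.8%, 26.8%, 8.66% and 4.72%, against 60.6%, 19.0%, 7.35% and 13.1% of all probe sets with a P1 mean of 300 or more. The prefix TaAffx was carried by 31 members, or 24.4%, against 18.0% of those probe sets. These shares were not tested.

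Genes with known roles in early or filling grain were then counted, from 7 lists of annotated genes, 76 of whose 97 probe sets were tested for 36 genes. The lists were chosen with earlier results of these data known, so their shares of calls are a description and no test. None of the 97 was a member. From P1 to P2, 7 of the 76 fell and 5 rose. From P2 to P3, 8 fell and 4 rose. From P1 to P3, 15 fell (19.7%, against 4.76% of all tested) and 6 rose (7.90%, against 8.36%). None of the 76 fell in both steps, where 0.346% of all tested probe sets did, so the count says nothing about these genes. Lower in both steps were 19, or 25%, against 16.2% of all tested. Of all 1032 tested probe sets with a symbol, 4 fell in both steps, the 3 members and the 1 of BMY1.

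By count of probe sets, the photosynthesis list lost signal mainly in the second step. Of its 14 tested probe sets 9 read 1 gene, rbcl, so the counts and the median lean on that gene. From P1 to P3 5 of the 14 fell and 0 rose, with a list median of -0.94. From P2 to P3 7 fell, all of rbcl, PsbP or PsbO, and from P1 to P2 1 fell and 1 rose. PsbO, an extrinsic subunit of photosystem II that stabilises its oxygen-evolving site, was at 8286, 4567 and 1703 (steps -0.86 and -1.42, limma adjusted p = 6.54e-10 for P3 against P1). The first step missed the minimum that the members met. PsbP, another extrinsic subunit there, was at 8911, 6473 and 2400 on its brighter probe set. PRK, phosphoribulokinase of the Calvin cycle, was at 3758, 2689 and 1422, and neither of its steps was called. FBP, fructose-bisphosphatase, did the reverse, falling from 691 to 326 in the first step and standing at 297 at P3. The large Rubisco subunit gene rbcl, encoded in the plastid, had 28 probe sets, of which 9 were tested and 4 fell from P2 to P3. One of these, TaAffx.128414.72.S1_at, was below background on every P2 and P3 array, and TaAffx.128414.196.S1_at had risen first, from 339 to 778.

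Both tested probe sets of the cell wall list fell from P1 to P3 with a list median of -1.41. XTH, a xyloglucan-remodelling enzyme of growing walls, was at 828, 549 and 307, with steps of -0.60 and -0.84. Glc1 was at 2253, 1584 and 884, with steps of -0.51 and -0.87. For both genes the whole change was called and neither step was. Of 14 redox probe sets 6 fell and 1 rose, and the list median was -0.82. CAT1, catalase, was at 818, 509 and 341 on its brighter probe set and was called only over the whole interval. Prx1 fell early, at 920, 344 and 355 on its brightest probe set. Of 4 starch probe sets 1 fell, AGA.1 at 892, 591 and 400, and 0 rose, with a median of -0.27.

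The remaining lists had medians near 0 or above it. None of 18 core histone probe sets was called from P1 to P3, with a median of -0.12, and none of 12 tubulin and profilin probe sets, with a median of 0.30. Of 12 protease and amylase inhibitor probe sets 1 fell and 5 rose, with a median of 0.58. The 1 that fell was wci, at 38448, 12866 and 15023, which was as bright at P1 as the brightest members but did not go down again after P2. The 5 that rose were of the serpins Serpin-Z1C, Serpin-Z2A and Serpin-Z2B and of the xylanase inhibitor XIP-I.

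**Figure D5:**
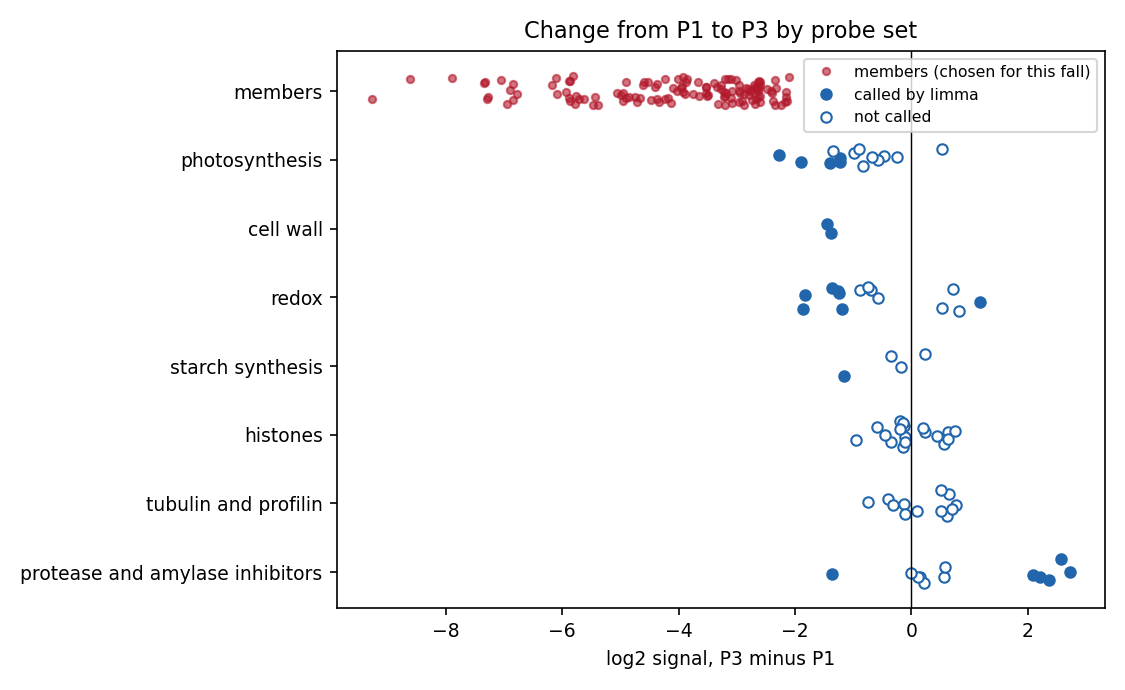
Log2 change from P1 to P3 for each member (red, chosen for this fall) and each tested probe set of the 7 gene lists (filled blue where called by limma, open where not). The members lie between -9.27 and -2.11, and of the listed probe sets only that of PsbO, at -2.28, reaches into their range.

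The number of members depended on how arrays were scaled. With each array scaled to the poly-A controls spiked into the RNA, whose log2 level was -0.23 ± 0.03, 0.61 ± 0.01 and -0.39 ± 0.01 (SD, n = 3) in the 3 phases, the rule found 78 probe sets, 46 of them members. That scaling moved the median of all tested probe sets to -0.83 in the first step and 1.07 in the second, and the medians of the members to -2.53 and -0.70. A factor per array moves every probe set alike, so the distance of the members from the median of all tested probe sets, -1.71 and -1.77, is the same by construction. No member was higher in either step under that scaling, which its size and the minimum step of 1 did not allow. The labels do not say how the plots were paired with phases, so the spread between arrays covers plots of 1 field season.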

How the data were processed

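Total RNA of whole grains was extracted with Trizol and labelled as biotinylated cRNA, per the labels' protocols. The deposited intensity values are linear probe set signals that the authors made with MAS5, per the submitters' processing notes. No version is given in the sources used here. Trimmed by 2% at each end, they had a mean of 500.1 on every array, with medians of 71.59 to 90.44. No further normalization was applied. Of 61290 probe sets, 111 Affymetrix and 64 reporter controls were left out.

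Groups and replicate numbers came from the titles. Under R 4.3.3, limma 3.58.1 (lmFit, eBayes with trend) was fitted to log2 signal with a pseudocount of 0, after leaving out the lowest 40% by mean log2 signal. The model held all 9 arrays with phase as factor, with 6 residual degrees of freedom. It was also run on simulated data with steps planted only in bright probe sets and no floor at background. That run does not cover dim members. Errors of changes are limma's standard errors. Precision is limited by 3 arrays per phase.

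Members and gene lists were chosen with earlier results of these data known. The names are those of every member with a symbol, the 8 brightest at P1, the 8 with the largest change among those above background, the 2 most uneven each way, the 2 on each side of each threshold, and in each list the called and the brightest probe sets, of which those that show each list's pattern are printed. Symbols came from the platform annotation, 770 of whose 771 genes matched the RefSeq gene table of assembly IWGSC CS RefSeq v2.1. Other scalings, pseudocounts, filters, thresholds and left-out arrays were tried as alternatives.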

Additional observations from a re-analysis of the deposited data

How the results depend on the processing

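The count of 127 was 113 with a pseudocount of 16, 96 with signals raised to background, 140 after quantile normalization, 153 and 155 after scaling to the array median and to hybridization controls, and 78 after scaling to poly-A controls. It was 310 and 49 at 1.5-fold and 3-fold per step, and 112 to 148 over other minimums of P1 signal. Leaving out replicates gave 127 to 143. The median first step of -1.69 became -1.82, -1.85 and -2.53 with median, hybridization and poly-A scaling, and -1.78 to -1.68 without a replicate. The median second step of -1.70 became -0.70 with poly-A scaling, -1.56 with a pseudocount of 16, -1.28 with signals raised to background and -1.74 to -1.65 without a replicate. Median, hybridization and poly-A scaling put the median first step of all tested probe sets at -0.11, -0.14 and -0.83, against 0.01 as deposited. Among all probe sets 2124, 1016 and 1746 fell from P1 to P2, P2 to P3 and P1 to P3, while 2528, 1634 and 3067 rose. With poly-A scaling 12824, 191 and 1302 fell and 791, 18543 and 4100 rose. With median scaling 2785, 1115 and 2509 fell and 2058, 1391 and 2320 rose, and with hybridization controls 2891, 973 and 2414 fell and 1896, 1507 and 2323 rose. Without a replicate 1814 to 2254, 895 to 1039 and 1615 to 1836 fell. The 15 falls from P1 to P3 in the gene lists were 15 to 20 over all settings and 15 to 17 without a replicate. Of 780 step values of the 26 named members under 15 settings, 687 moved by less than the spread between arrays, 93 by more and 0 reversed. The 0 was largely set by the rule. Steps without overlap cannot reverse when an array is left out or a pseudocount is added. The scalings to medians or controls shifted the phases by less than the minimum step of 1. Same-numbered arrays of different phases did not deviate together (r = -0.05 to 0.03, against -0.04 to 0.06 for other numbers). This cannot exclude shared plots, and the main fit used no pairing. With the replicate number as a block 2088, 1004 and 1729 fell, and 15 in the lists. Dim signal limits the second step in the 42 members below background on all P3 arrays. It is a bound in 19 of these and not measured in 23. Another 9 members were below background on 1 or 2 P3 arrays, and their second step is not counted as measured. The causes of the differences between settings were not tested beyond the shifts given.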
